A study of Mus musculus with 12 samples.

Results

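The response of 3T3 cells, a mouse fibroblast cell line, to extracellular vesicles (EVs) of control cancer cells was taken as the difference between 2 groups of 3 bulk RNA libraries, 6 of the 12 in the series. In the first group the fibroblasts were left untreated. In the second, labelled shCon, they had been exposed for 24 h to EVs from the control line of MDA-MB-468, human breast cancer cells kept as a line. Members were chosen by these group labels alone. The other 6 libraries came from fibroblasts given EVs of MDA-MB-468 cells with CRIPTO knocked down (shCr) or overexpressed (CrOE), CRIPTO being a cell-surface protein. All 4 groups share the recipient line and the library preparation, which kept strand and began with poly(A) selection. The labels give no EV dose, no mock preparation and no time for the untreated cells, and no word on whether the donor lines were clones. The EVs, whatever was isolated along with them, the handling of the treated cells and any difference in time therefore cannot be told apart here. Nothing in the labels says that replicates came from separate cultures, so p-values measure the spread between these libraries, which may be technical.

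EVs are membrane-bound particles that carry protein, lipid and RNA from the cell that released them. A recipient cell can bind them at its surface, fuse with them or take them up by endocytosis, and taken-up cargo can pass to the lysosome. Tumour EVs are known to act on fibroblasts, in which growth, matrix production, contractility and cytokine output are commonly followed. 3T3 cells divide in culture and make collagen, fibronectin and other matrix proteins.

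Totals ran from 25960054 to 27189953 estimated counts in the untreated libraries and from 27811383 to 30177901 after shCon EVs. Levels are given in CPM, the usual counts-per-M scale, with library sizes scaled by TMM factors. Pearson's r of log2 CPM across genes was 0.989 to 0.994 within the groups and 0.976 to 0.981 between them. Untreated replicate 2 stood apart on the second principal component (13.8% of the variance), at -31.2 against 16.5 and 8.92 for the other untreated libraries. Mitochondrially encoded genes took 0.495%, 1.64% and 0.991% of the counts in untreated replicates 1, 2 and 3, and 1.35%, 1.64% and 1.61% after shCon EVs. Tdgf1, the mouse gene of CRIPTO, had 1, 3 and 2 counts untreated and 0, 0 and 2 counts after shCon EVs, at or under a floor of 3 counts in each library. Of 15 fibroblast markers, 14 passed the filter on low counts, with a summed level of 16998 to 18106 CPM untreated and 18422 to 18616 CPM after shCon EVs. That sum is mostly collagen, and of the 14 markers 3 rose and 6 fell, with a median log2 difference of -0.14. Epithelial markers passed in 4 of 15 cases, with a sum of 2.45 to 3.39 CPM untreated and 2.22 to 3.67 CPM with EVs, and Epcam and Krt14 had no count in any of the 6 libraries. The 8 macrophage and leukocyte markers that passed, of 13, summed to 130.4 to 142 CPM and 126 to 137 CPM, while Adgre1 and Tyrobp, which define macrophages, reached at most 1 count. Lyz2 rose (0.73 ± 0.14, adjusted p = 0.00112), as did Aif1 (0.84 ± 0.24, adjusted p = 0.014, but adjusted p = 0.056 to 0.0603 without untreated replicate 3 or shCon replicate 1), and Cd14 fell (-0.91 ± 0.10, adjusted p = 1.5e-05), and the other 5 were not called. Lyz2 was at 50.3, 49.1 and 41.4 CPM in the untreated libraries and 84.7, 75.7 and 73.4 CPM after shCon EVs, and Cd14 at 82.8, 69.3 and 82.995 CPM without vesicles and 41.2, 43.1 and 40.8 CPM with them. The 4 endothelial markers that passed, of 11, summed to 2.13 to 2.97 CPM untreated and 5.38 to 5.94 CPM with EVs. Vwf, the main endothelial marker by level, was at 2.27, 1.56 and 1.62 CPM in the untreated libraries and 4.58, 4.28 and 4.86 CPM after shCon EVs (1.33 ± 0.18, adjusted p = 8.08e-05), while Cldn5 and Sox17 had no count in any library. The 6 muscle, cartilage and bone markers that passed, of 14, summed to 77.7 to 84.9 CPM untreated and 86.9 to 91.4 CPM with EVs, with no call and Myod1 at 0. The part of these marker levels in the results was not tested.

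The response was broad and mostly small. Of 14279 genes tested, 5447 (38.1%) passed an adjusted p of 0.05, the rule for a call throughout, with 2569 higher (18.0%) and 2878 lower (20.2%) after shCon EVs. The median log2 difference of the higher calls was 0.45 and that of the lower calls -0.43, and 863 calls (6.04% of genes) differed at least 2-fold, 358 upward (2.51%) and 505 downward (3.54%). Only 59 rises and 85 falls reached 4-fold. Over all tested genes the median log2 difference was 0.01 and the median absolute difference 0.23. In 5384 of the calls (98.8%) the 3 treated libraries lay entirely above or below the 3 untreated ones, which was so for 54.2% of all tested genes. The called share rose with the level of the gene, from 15.2% of genes below 1 CPM to 54.3% of genes in the highest of 6 bins of mean level. It was 39.6% among protein-coding genes, 14.1% among pseudogenes and 13.3% among other noncoding genes. All log2 differences below are shCon EVs minus untreated with their SE from the fit, n = 3 libraries a side, and adjusted p-values come from the quasi-likelihood test of edgeR, adjusted by Benjamini-Hochberg over all tested genes.

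**Figure D1:**
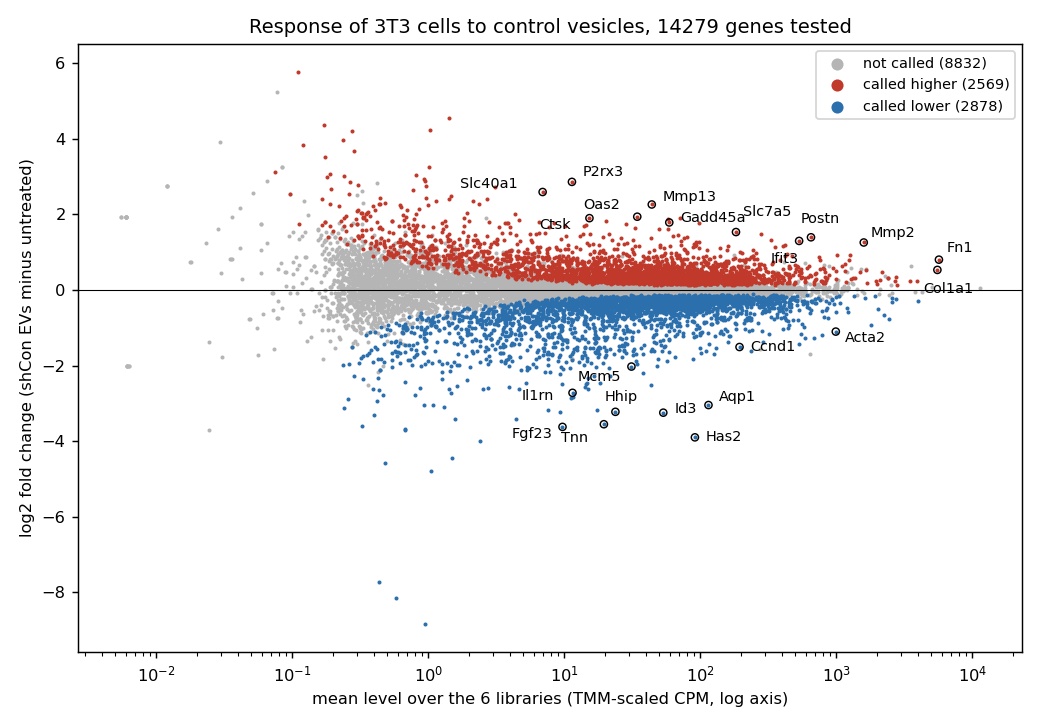
Log2 difference between fibroblasts given shCon EVs and untreated fibroblasts (vertical axis) against the mean level over the 6 libraries in CPM (horizontal log axis), 1 point per tested gene, coloured by call, with circled genes named. The 2569 higher and 2878 lower calls lie mostly within a 2-fold change, and Has2 is the lowest of the circled genes; the 3 lowest points had 0 counts in every shCon library, so no fold is read from them.

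Hand-written lists of genes by role gave the outline of the response. Counts of list members stand beside the 18.0% of all tested genes called higher and the 20.2% called lower. One-sided downward counts were found for replication, mitosis, nucleotide synthesis and respiratory chain genes, and one-sided upward counts for cholesterol synthesis, interferon-stimulated, ATF4 and lysosome genes. Cytosolic ribosomal protein genes and mitochondrially encoded genes gave 1 call and 0 calls.

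**Figure D2:**
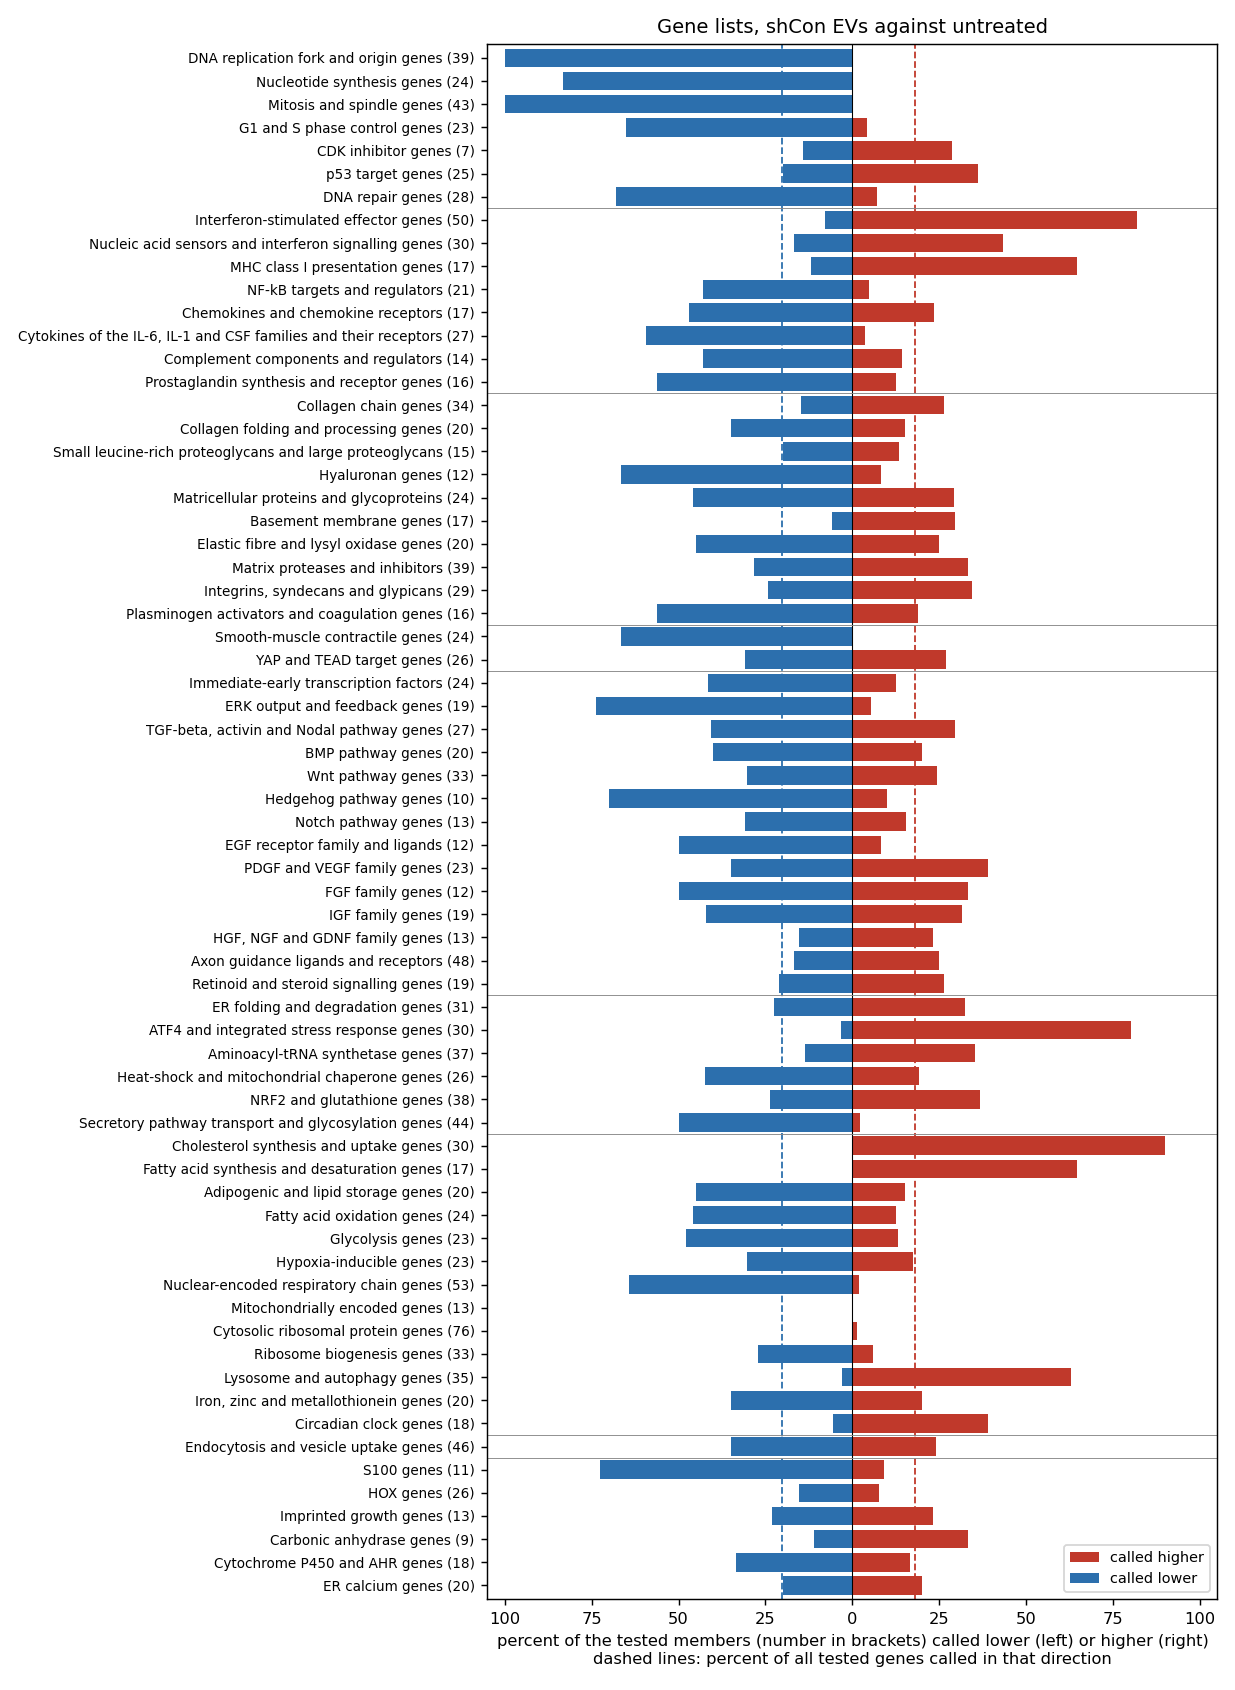
Percent of the tested members called higher (bars to the right) and called lower (bars to the left) in each of 67 gene lists, with the number tested in brackets; dashed lines mark the 18.0% of all tested genes called higher and the 20.2% called lower. Replication and mitosis genes reach 100% lower, and cholesterol genes reach the highest share of higher calls.

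Genes of cell division were lower after shCon EVs without exception in the replication and mitosis lists. All 39 replication fork and origin genes fell, with a median log2 difference of -0.85, and all 43 mitosis and spindle genes fell, with a median of -1.68. At least 2-fold falls numbered 14 and 41. Both lists had every member outside the range of the other group, and both counts stayed whole without untreated replicate 2. In bulk RNA, fewer dividing cells and less of these transcripts per cell cannot be told apart.

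The promoters of 4 of these genes are printed because short elements known from cell-cycle promoters lie in them. Each is the 250 bases before the transcription start in the RefSeq table for GRCm38.p6, written in the direction of the gene. For Cdc6 (chr11:98907901-98908150, plus strand) capitals mark TTTCCCGC, an E2F element. For Mcm5 (chr8:75109259-75109508, plus strand) they mark its variant TTTGGCGC. For Kif11 (chr19:37376132-37376381, plus strand) and Espl1 (chr15:102296043-102296292, plus strand) they mark CCAAT boxes and the CHR element TTTGAA, each searched on both strands, with no overlap between matches. Kif11 and Espl1 were picked for their promoters after their values had been seen.
Cdc6: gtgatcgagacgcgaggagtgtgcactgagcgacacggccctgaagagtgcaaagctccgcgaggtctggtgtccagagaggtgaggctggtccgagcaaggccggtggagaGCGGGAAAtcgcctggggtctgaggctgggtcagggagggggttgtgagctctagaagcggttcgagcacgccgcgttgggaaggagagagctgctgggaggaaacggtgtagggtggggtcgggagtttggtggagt
Mcm5: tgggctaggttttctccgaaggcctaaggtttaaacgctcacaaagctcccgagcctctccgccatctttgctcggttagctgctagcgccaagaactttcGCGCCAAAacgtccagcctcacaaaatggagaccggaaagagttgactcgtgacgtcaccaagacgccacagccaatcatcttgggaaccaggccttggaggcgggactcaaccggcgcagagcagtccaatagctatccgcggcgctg
Kif11: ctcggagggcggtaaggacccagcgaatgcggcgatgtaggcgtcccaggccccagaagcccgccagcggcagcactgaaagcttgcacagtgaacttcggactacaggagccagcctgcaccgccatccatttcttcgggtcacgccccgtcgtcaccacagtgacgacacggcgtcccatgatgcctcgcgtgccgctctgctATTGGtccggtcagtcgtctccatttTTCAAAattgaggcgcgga
Espl1: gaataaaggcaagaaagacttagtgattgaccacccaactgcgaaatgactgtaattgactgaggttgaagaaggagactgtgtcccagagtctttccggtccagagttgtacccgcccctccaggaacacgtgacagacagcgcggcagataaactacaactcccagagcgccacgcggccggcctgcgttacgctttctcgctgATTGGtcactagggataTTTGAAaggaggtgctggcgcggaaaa
The E2F element began 138 bases before the start in Cdc6, and its variant 149 bases before the start in Mcm5. CHR began at 19 and CCAAT at 45 bases before the start in Kif11, and at 27 and 44 in Espl1. The table had promoters for 36 of the 43 mitosis genes (38 promoters of 300 bases, of which 50 follow the start). TTTGAA was in 27 of them (71.1%) against 17.9% of all 32851 promoters in the table, and CCAAT was in 30 (78.9%) against 37.4%. Promoters of 32 of the 39 replication genes held TTTCCCGC in 6 of 39 (15.4%, against 1.07% of all) and TTTGGCGC in 7 (17.9%, against 0.514%). Promoters of tested genes held TTTGAA in 12.3%, CCAAT in 38%, TTTCCCGC in 1.88% and TTTGGCGC in 0.884% of cases. The mitosis and replication lists were written by role, so their shares describe the lists and not the response to EVs. A match of letters is a description of these windows and not a bound site.

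Among origin and fork genes, Cdc6, which loads the MCM helicase onto origins, was at 4.36, 4.80 and 5.11 CPM in the untreated libraries and 1.07, 0.631 and 0.648 CPM after shCon EVs. Mcm5, a subunit of that helicase, was at 50.01, 47.7 and 52.7 CPM without vesicles and 10.7, 13.6 and 12.5 CPM with them. Mcm3, another subunit, was at 62.8, 65.1 and 67.8 CPM and then 21.4, 22.2 and 20.4 CPM. Every treated library was below every untreated one for each of these genes. The log2 differences were -2.60 ± 0.20 (adjusted p = 7.09e-07) for Cdc6, -2.03 ± 0.08 (adjusted p = 5.59e-09) for Mcm5 and -1.61 ± 0.06 (adjusted p = 2.23e-09) for Mcm3. Mcm10, which joins helicase and polymerase at the fork, differed by -1.72 ± 0.15 (adjusted p = 2.44e-06). Of 24 nucleotide synthesis genes, 20 fell and none rose. Tk1, the thymidine kinase of the salvage route, was at 27.7, 26.3 and 28.3 CPM in the untreated libraries and 5.87, 5.84 and 5.33 CPM after shCon EVs, a difference of -2.27 ± 0.09 (adjusted p = 3.36e-09). Rrm2, the ribonucleotide reductase subunit made in S phase, differed by -1.80 ± 0.09 (adjusted p = 2.92e-08) and Tyms (thymidylate synthase) by -1.05 ± 0.06 (adjusted p = 6.48e-08). The first 3 enzymes of pyrimidine synthesis, carried by Cad, were at 77.8, 83.8 and 87.7 CPM in the untreated libraries and 85.5, 87.2 and 83.2 CPM after shCon EVs. Those ranges overlapped, and so did those of the purine enzymes Pfas and Atic, none of which was called.

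In the mitosis list, Nuf2, a kinetochore protein, was at 16.8, 15.8 and 16.6 CPM in the untreated libraries and 3.18, 2.52 and 3.06 CPM after shCon EVs. Bub1, a spindle checkpoint kinase, was at 16.99, 14.6 and 14.6 CPM without vesicles and 3.44, 3.42 and 3.03 CPM with them. Plk1, a mitotic kinase, went from 32.1, 35.2 and 35.9 CPM to 7.44, 8.53 and 8.61 CPM. The treated libraries of all 3 genes were lower than every untreated library. The differences were -2.49 ± 0.13 (adjusted p = 3.53e-08), -2.22 ± 0.11 (adjusted p = 2.53e-08) and -2.07 ± 0.10 (adjusted p = 1.56e-08) in that order. Birc5 (survivin) differed by -2.09 ± 0.11 (adjusted p = 3.55e-08), Kif11, the motor that separates spindle poles, by -2.03 ± 0.11 (adjusted p = 3.55e-08), and Espl1, the protease separase, with log2 differences of -1.71 ± 0.13 (adjusted p = 6.66e-07). Of 28 DNA repair genes, 19 fell and 2 rose. The falls included members that also act in S phase, Exo1 (a nuclease, -1.90) and Fancd2 (-1.77). The rises were Xpc, which senses damage for nucleotide excision repair (0.35 ± 0.06, adjusted p = 0.000873), and the checkpoint kinase gene Atr (0.31 ± 0.11, adjusted p = 0.0391), which lost its call in several fits (adjusted p = 0.0611 to 0.132 without untreated replicate 1, 2 or 3 or shCon replicate 1 or 2). Xrcc5 and Xrcc6, the Ku subunits of end joining, were not called.

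Control genes of G1 and S phase were more often lower than higher. Of 23 tested, 15 fell, among them Ccnd1 (cyclin D1) at 281, 278 and 305 CPM in the untreated libraries and 97.7, 98.97 and 107 CPM after shCon EVs. Those values did not overlap and differed by -1.51 ± 0.06 (adjusted p = 5.59e-09), although the Ccnd1 estimates were fractional in all 6 libraries, so its reads may be shared with other rows. Mybl2 (-1.76), Ccne2 (cyclin E2, -1.75), E2f7 (-1.59) and E2f8 (-1.66), the last pair being E2F repressors, fell as well. Rb1, the retinoblastoma protein that holds E2F factors in check, was the only member to rise, from 18.8, 17.95 and 20.9 CPM to 27.6, 28.1 and 26.98 CPM (0.52 ± 0.08, adjusted p = 0.000329). Myc was at 33.03, 36.02 and 35.7 CPM in the untreated libraries and 31.99, 35.2 and 35.9 CPM after shCon EVs, with overlapping ranges and no call. Of 7 CDK inhibitor genes, Cdkn2b (p15, 0.30 ± 0.06, adjusted p = 0.00154) and, less firmly, Cdkn1a (p21, 0.14 ± 0.05, adjusted p = 0.0416) rose and Cdkn2d (p19, -0.79 ± 0.12, adjusted p = 0.000187) fell. The Cdkn1a call was lost in most fits with a library left out (adjusted p = 0.0802 to 0.151 without untreated replicate 1 or 3 or shCon replicate 1, 2 or 3). Cdkn2a was at 431, 457 and 405 CPM in the untreated libraries and 445, 443 and 439 CPM after shCon EVs and was not called. The called share of the CDK inhibitor list was 42.9%, beside 38.1% of all genes. The 25 p53 target genes gave 9 rises and 5 falls, from Plk2 (0.64) and Sesn2 (0.63) at the top to Btg2 (-0.46) and Sesn1 (-0.49) at the bottom.

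**Figure D3:**
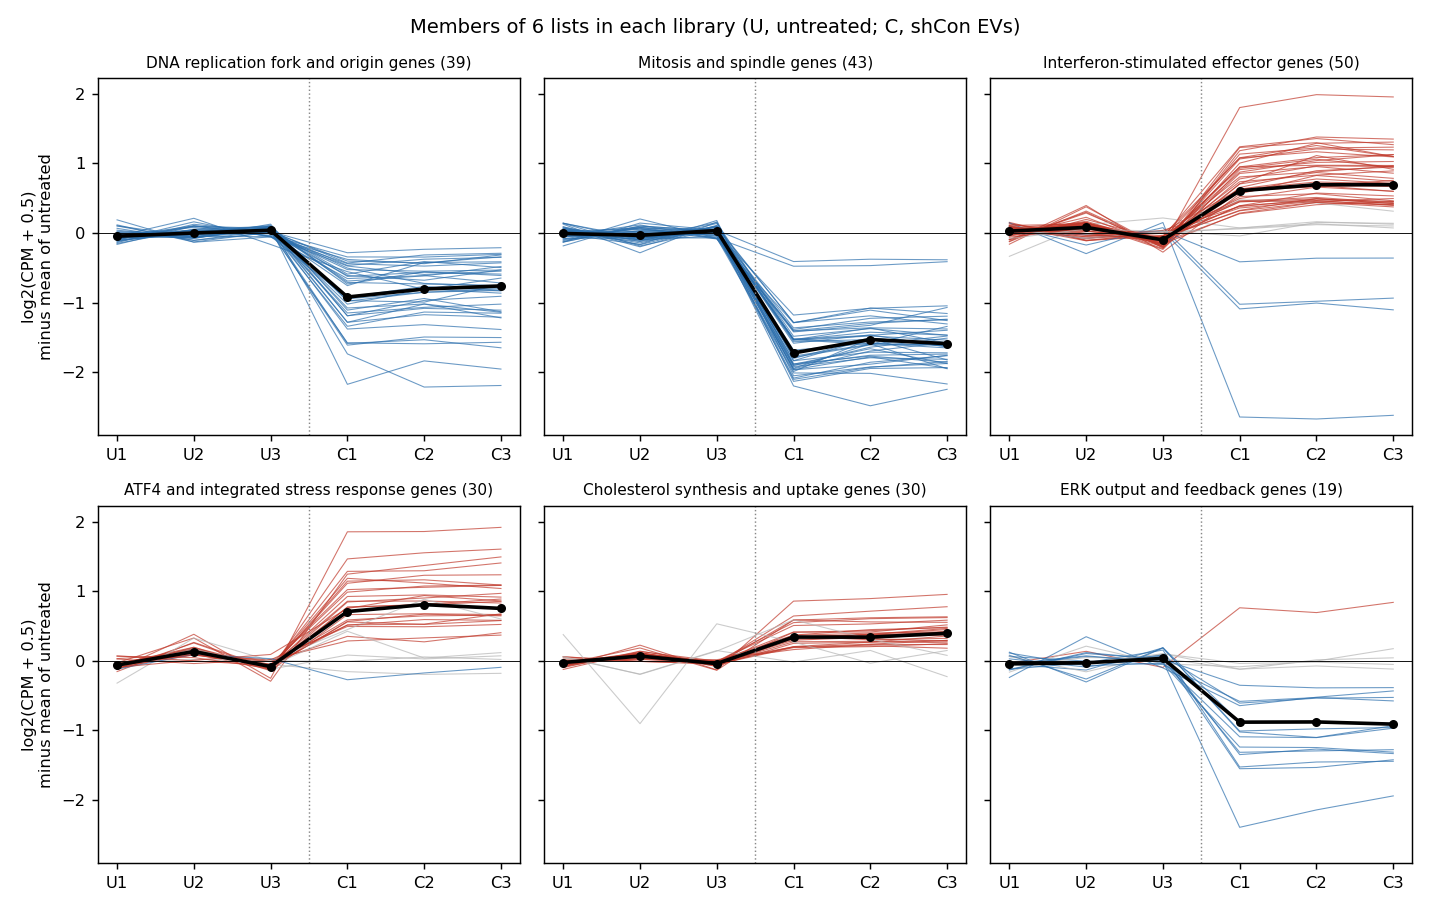
Each thin line is 1 gene of a list across the 6 libraries, as log2(CPM + 0.5) minus its mean in the untreated libraries (U1 to U3, untreated; C1 to C3, shCon EVs), coloured by call; the black line is the median of the list. In the replication and mitosis panels all lines end below 0 in the shCon libraries, and in the cholesterol panel the median rises in all 3 shCon libraries.

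Interferon-stimulated genes moved the other way. Of 50 effector genes, 41 rose and 4 fell, with a median log2 difference of 0.67. These genes carry out the antiviral and antigen-presenting programme that interferons switch on. The promoters of 3 that rose and of 1 that fell are printed below, with capitals on the core of the interferon-stimulated response element (ISRE, a pair of GAAA repeats with 2 bases between them, in either strand). They are Rsad2 (chr12:26456453-26456702, minus strand), Ifit3 (chr19:34583279-34583528, plus strand), Oas3 (chr5:120777660-120777909, minus strand) and Ifitm2 (chr7:140955962-140956211, minus strand), again the 250 bases before the start in GRCm38.p6 from RefSeq. Oas3 was picked for its promoter after its values had been seen.
Rsad2: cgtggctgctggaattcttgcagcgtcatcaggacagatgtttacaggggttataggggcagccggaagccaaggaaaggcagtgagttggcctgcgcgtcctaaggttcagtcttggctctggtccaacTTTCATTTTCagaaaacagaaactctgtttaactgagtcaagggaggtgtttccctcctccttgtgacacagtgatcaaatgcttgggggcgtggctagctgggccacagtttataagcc
Ifit3: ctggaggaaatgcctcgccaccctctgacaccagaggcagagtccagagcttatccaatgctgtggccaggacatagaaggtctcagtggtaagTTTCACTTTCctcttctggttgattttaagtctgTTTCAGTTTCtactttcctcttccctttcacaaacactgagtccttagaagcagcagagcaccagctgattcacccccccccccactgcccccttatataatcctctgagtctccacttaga
Oas3: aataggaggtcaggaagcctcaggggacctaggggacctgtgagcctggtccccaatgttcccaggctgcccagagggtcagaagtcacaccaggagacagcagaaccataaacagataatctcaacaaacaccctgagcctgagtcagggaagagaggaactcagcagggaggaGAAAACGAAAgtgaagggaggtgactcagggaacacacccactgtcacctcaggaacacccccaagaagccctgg
Ifitm2: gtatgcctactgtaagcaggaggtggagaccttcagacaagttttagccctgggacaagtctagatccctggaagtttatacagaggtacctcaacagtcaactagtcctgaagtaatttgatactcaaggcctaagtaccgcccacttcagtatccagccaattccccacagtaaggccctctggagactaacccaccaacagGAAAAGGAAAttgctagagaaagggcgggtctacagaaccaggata
The ISRE core began 120 bases before the start in Rsad2, 156 and 122 in Ifit3, 75 in Oas3 and 46 in Ifitm2. It was in 3.44% of all promoters of 300 bases in the table. Promoters were found for 38 of the 50 listed genes, under the 80% asked of a list here, so no share is given for it. That minimum was not applied to the tested genes as a whole, of which 74.8% had a promoter.

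Oas2, a synthetase of the 2-5A signal that activates RNase L, was at 13.1, 17.3 and 12.3 CPM in the untreated libraries and 50.4, 57.4 and 56.1 CPM after shCon EVs. Rsad2 (viperin), which makes a chain-terminating nucleotide, was at 18.8, 18.6 and 17.6 CPM without vesicles and 43.98, 47.8 and 44.9 CPM with them. Ifit3, an antiviral protein, went from 322, 341 and 262 CPM to 697, 799 and 782 CPM. Every treated library was above every untreated one in these genes. They differed by 1.94 ± 0.21 (adjusted p = 1.5e-05), 1.31 ± 0.15 (adjusted p = 1.71e-05) and 1.30 ± 0.15 (adjusted p = 2.93e-05). Oas3 differed by 1.09 ± 0.19 (adjusted p = 0.000595), and Oas1g by 1.24 ± 0.16 (adjusted p = 6.5e-05), with fractional estimates for Oas1g in all 6 libraries. Of the 4 that fell, 3 were Ifitm genes, which code for membrane proteins that hinder virus entry. Ifitm1 was at 21.8, 15.9 and 21.9 CPM in the untreated libraries and 2.72, 2.66 and 2.77 CPM after shCon EVs, Ifitm2 at 819, 679 and 808 CPM without vesicles and 376, 388 and 400.2 CPM with them and Ifitm3 at 1127, 1033 and 1111 CPM and then 817, 848 and 849 CPM. Their differences were -2.87 ± 0.23 (adjusted p = 1.14e-06), -0.99 ± 0.08 (adjusted p = 9.79e-07) and -0.38 ± 0.07 (adjusted p = 0.000756), with no overlap, and Ifi27 differed by -1.08 ± 0.08 (adjusted p = 7.24e-07). Pml, Eif2ak2 (the kinase PKR) and Trim25 were not called.

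Upstream of these effectors, 13 of 30 nucleic acid sensor and interferon signalling genes rose and 5 fell. Tlr3 (a sensor of double-stranded RNA in endosomes) differed by 0.75 ± 0.12 (adjusted p = 0.000288), Irf7 by 0.73 ± 0.14 (adjusted p = 0.0016), Nlrc5 (the activator of MHC class I genes) by 0.72 ± 0.13 (adjusted p = 0.000665) and Ifih1 (the sensor MDA5) by 0.59 ± 0.11 (adjusted p = 0.00144). The DNA sensing pair fell. Tmem173 (STING) was at 68.98, 71.4 and 68.98 CPM in the untreated libraries and 36.9, 38.2 and 42.7 CPM after shCon EVs, without overlap (-0.83 ± 0.07, adjusted p = 9.96e-07), and Mb21d1 (the DNA sensor cGAS) differed by -0.53 ± 0.09 (adjusted p = 0.000527). Socs1, a brake on JAK signalling, fell too (-0.75 ± 0.14, adjusted p = 0.00128). Stat2 was at 369.5, 450.5 and 378 CPM in the untreated libraries and 469, 535 and 536 CPM after shCon EVs; its treated libraries lay above the untreated ones but it missed the threshold (0.36 ± 0.15, adjusted p = 0.0822). Of 17 MHC class I presentation genes, 11 rose and 2 fell. B2m, the light chain of class I, was at 892, 898 and 859 CPM in the untreated libraries and 1444, 1429 and 1391 CPM after shCon EVs, and H2-K1, a heavy chain, at 220.5, 238 and 211 CPM without vesicles and 491, 494 and 487 CPM with them. All treated values were higher, with log2 differences of 0.69 ± 0.08 (adjusted p = 4.01e-05) and 1.14 ± 0.09 (adjusted p = 5.52e-07), and H2-D1 and H2-Q4 rose as well, with 0.89 ± 0.08 (adjusted p = 3.26e-06) and 1.30 ± 0.16 (adjusted p = 3.28e-05). Estimates of H2-K1 and H2-D1 were fractional in all libraries, and heavy chain genes resemble each other closely. The falls were Calr and Pdia3, chaperones of the class I loading complex that also serve general protein folding, with differences of -0.57 ± 0.05 (adjusted p = 2.99e-06) and -0.35 ± 0.08 (adjusted p = 0.0054).

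Cytokine genes were mostly lower, in contrast to the interferon-stimulated genes. Of 27 genes of the IL-6, IL-1 and CSF families and their receptors, 16 fell and 1 rose, with a median of -0.29. Il6 was at 16.7, 21.2 and 14.97 CPM in the untreated libraries and 4.26, 4.15 and 4.32 CPM after shCon EVs. Il33, an alarmin of the IL-1 family, was at 8.16, 6.40 and 9.79 CPM without vesicles and 0.859, 0.863 and 0.540 CPM with them, and Il1rn, the antagonist of the IL-1 receptor, at 21.02, 16.7 and 22.3 CPM and then 2.97, 3.09 and 3.03 CPM. Treated libraries were lower throughout, with log2 differences of -2.05 ± 0.14 (adjusted p = 2.72e-07), -3.42 ± 0.26 (adjusted p = 5.62e-07) and -2.72 ± 0.14 (adjusted p = 2.53e-08). Csf3 (the growth factor G-CSF) fell as well (-2.16 ± 0.15, adjusted p = 2.44e-07), and Csf1, the macrophage growth factor, was the only riser (0.22 ± 0.08, adjusted p = 0.0482). The Csf1 call was not kept with fewer libraries (adjusted p = 0.0765 to 0.191 without untreated replicate 1 or 3 or shCon replicate 1, 2 or 3). NF-kB targets and regulators gave 9 falls and 1 rise of 21, a called share of 47.6% beside 38.1% of all genes. Lcn2 (lipocalin 2) was at 419, 394 and 440.1 CPM in the untreated libraries and 160.4, 163 and 164 CPM after shCon EVs and differed by -1.36 ± 0.10 (adjusted p = 6.45e-07), and the adhesion receptor Icam1 differed by -1.23 ± 0.19 (adjusted p = 0.000245). Tnfaip3 (A20), which dampens NF-kB, rose (0.33 ± 0.09, adjusted p = 0.0137), but not in every fit (adjusted p = 0.0538 to 0.0768 without untreated replicate 1 or shCon replicate 1). Vcam1 and Sod2 had overlapping ranges and were not called.

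Of 17 chemokine and chemokine receptor genes, 8 fell and 4 rose. Ccl9 was at 63.3, 53.5 and 46.6 CPM in the untreated libraries and 13.4, 13.6 and 14.95 CPM after shCon EVs (-1.96 ± 0.18, adjusted p = 3.04e-06), and Ccl11 (eotaxin) differed by -2.61 ± 0.31 (adjusted p = 3.17e-05) and the scavenging receptor Ackr3 by -1.03 ± 0.11 (adjusted p = 1.01e-05). Ccl5 rose (0.42 ± 0.09, adjusted p = 0.00352). Cxcl12, the chemokine of CXCR4, was at 961, 1069 and 962 CPM in the untreated libraries and 1051, 1026 and 1022 CPM after shCon EVs, with overlapping ranges and no call. In the complement list 6 of 14 fell and 2 rose, the falls led by Clu (clusterin, -1.67 ± 0.07, adjusted p = 5.59e-09) and Serping1 (the C1 inhibitor, -1.11 ± 0.10, adjusted p = 1.9e-06). C3, the central component, rose slightly from 1821, 1933 and 2001 CPM to 2269, 2339.9 and 2259 CPM (0.25 ± 0.08, adjusted p = 0.0231). Among 16 prostaglandin genes 9 fell and 2 rose. Ptgs2 (the inducible cyclooxygenase) was at 141, 134 and 152 CPM in the untreated libraries and 77.5, 80.6 and 78.1 CPM after shCon EVs, and Ptges (prostaglandin E synthase) at 101, 97.003 and 109.8 CPM without vesicles and 57.9, 56.5 and 60.7 CPM with them. Neither overlapped, and they differed by -0.85 ± 0.06 (adjusted p = 3.32e-07) and -0.81 ± 0.07 (adjusted p = 1.73e-06). The receptor gene Ptgfr fell by more (-1.61 ± 0.13, adjusted p = 1.44e-06). Ptgds, the prostaglandin D synthase, went up from 0.732, 0.610 and 0.736 CPM to 3.36, 3.02 and 4.29 CPM (2.35 ± 0.18, adjusted p = 6.39e-07).

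Genes of the ATF4 programme were higher. ATF4 is the transcription factor whose translation rises in the integrated stress response, and its targets supply amino acids and their transporters. Of 30 members 24 rose and 1 fell, with a median log2 difference of 0.81 and 10 rises of at least 2-fold. The promoters of Chac1 (chr2:119350992-119351241, plus strand) and Slc7a11 (chr3:50443614-50443863, minus strand) are printed with capitals on TGATGNAA, the composite element of ATF4 and C/EBP factors, from the same RefSeq table.
Chac1: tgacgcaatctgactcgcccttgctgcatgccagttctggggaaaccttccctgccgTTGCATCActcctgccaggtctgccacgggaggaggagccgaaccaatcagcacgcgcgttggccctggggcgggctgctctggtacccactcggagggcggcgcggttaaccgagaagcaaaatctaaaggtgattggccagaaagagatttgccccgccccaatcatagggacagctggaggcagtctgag
Slc7a11: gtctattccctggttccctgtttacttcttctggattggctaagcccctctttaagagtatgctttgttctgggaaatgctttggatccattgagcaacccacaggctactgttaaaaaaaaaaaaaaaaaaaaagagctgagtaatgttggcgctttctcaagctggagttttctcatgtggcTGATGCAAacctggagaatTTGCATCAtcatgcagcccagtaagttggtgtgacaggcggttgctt
The element began 193 bases before the start in Chac1 and 66 and 47 bases before it in Slc7a11. It was in 10 of 32 promoters of 27 of the 30 members (31.2%), in 2.39% of promoters of tested genes and in 3.97% of all promoters in the table. Members were listed by role, so their share describes the list and not the response to EVs.

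Atf4 itself was at 284, 298 and 255 CPM in the untreated libraries and 475, 486 and 503 CPM after shCon EVs (0.81 ± 0.06, adjusted p = 4.93e-07). Trib3, a pseudokinase that feeds back on the pathway, was at 22.2, 31.7 and 20.3 CPM without vesicles and 88.9, 89.2 and 92.98 CPM with them. Slc7a5, the transporter of large neutral amino acids, went from 85.6, 111 and 85.1 CPM to 258, 274 and 285 CPM, and Chac1, which breaks down glutathione, from 23.6, 30.3 and 19.5 CPM to 57.8, 63.01 and 68.7 CPM. Treated libraries were above untreated ones in each case, with log2 differences of 1.87 ± 0.13 (adjusted p = 2.74e-07), 1.53 ± 0.10 (adjusted p = 1.68e-07) and 1.37 ± 0.13 (adjusted p = 4.28e-06). Slc7a11, the cystine importer, differed by 1.12 ± 0.11 (adjusted p = 5.78e-06), Atf5 by 1.32 ± 0.10 (adjusted p = 8.73e-07) and Sesn2 by 0.63 ± 0.09 (adjusted p = 0.000109). Atf3, a stress-inducible factor of the same family, was at 13.6, 16.1 and 12.99 CPM in the untreated libraries and 15.03, 14.4 and 14.9 CPM after shCon EVs and was not called. Ddit4 was the 1 member that fell (-0.18 ± 0.07, adjusted p = 0.0423), with overlapping ranges, and its call was lost with fewer libraries (adjusted p = 0.098 to 0.175 without untreated replicate 2 or 3 or shCon replicate 1 or 2).

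Aminoacyl-tRNA synthetases, which load tRNAs with amino acids, gave 13 rises and 5 falls of 37, a called share of 48.6% beside 38.1% of all genes. The cytosolic enzymes Aars (0.78 ± 0.08, adjusted p = 5.05e-06), Cars (0.69 ± 0.08, adjusted p = 2.4e-05), Eprs (0.68 ± 0.05, adjusted p = 6.33e-07) and Sars (0.65 ± 0.05, adjusted p = 7.99e-07) led the rises. The falls included the cytosolic Hars (-0.31 ± 0.05, adjusted p = 0.000235) and the mitochondrial Mars2 (-0.44 ± 0.09, adjusted p = 0.00217). Genes of ER folding and degradation were split, with 10 up and 7 down of 31. Ero1l, the oxidase that drives disulphide formation, was at 71.7, 73.1 and 72.7 CPM in the untreated libraries and 149.96, 150.1 and 153 CPM after shCon EVs (1.06 ± 0.07, adjusted p = 1.51e-07), and the sensors Ern1 (IRE1) and Atf6 differed by 0.63 ± 0.08 (adjusted p = 5.11e-05) and 0.49 ± 0.06 (adjusted p = 5.38e-05). Hspa5 (BiP), the main ER chaperone, was at 674, 652 and 647 CPM in the untreated libraries and 611, 602 and 599 CPM after shCon EVs. Its treated values lay below the untreated ones, without a call (-0.12 ± 0.07, adjusted p = 0.165). Secretory pathway genes leaned down, with 22 falls and 1 rise of 44 and a median of -0.20. They included Sec61g, a translocon subunit (-0.84 ± 0.18, adjusted p = 0.00268), and Dad1, an oligosaccharyltransferase subunit (-0.54 ± 0.05, adjusted p = 3.72e-06). The riser was Creb3l1, a factor that turns on secretory genes, from 45.8, 45.4 and 46.6 CPM to 86.6, 88.1 and 88.8 CPM (0.94 ± 0.08, adjusted p = 9.96e-07).

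Chaperone genes were more often lower than higher. Of 26 genes 11 fell, led by Hsph1 (-0.71 ± 0.08, adjusted p = 1.17e-05) and Stip1 (-0.49 ± 0.05, adjusted p = 4.26e-06), and 5 rose, among them Lonp1, the mitochondrial protease, at 159, 189.7 and 165 CPM in the untreated libraries and 299, 319 and 334 CPM after shCon EVs (0.89 ± 0.09, adjusted p = 6.39e-06), and Hspa9 (0.49 ± 0.05, adjusted p = 5.46e-06). The NRF2 and glutathione list went in both directions, with 14 up and 9 down of 38. Gclc, the first enzyme of glutathione synthesis, rose (1.08 ± 0.06, adjusted p = 3.53e-08), and so did Srxn1 (0.61 ± 0.06, adjusted p = 8.64e-06). Extracellular superoxide dismutase, Sod3, was at 369, 300.5 and 401 CPM in the untreated libraries and 112, 119 and 115 CPM after shCon EVs (-1.63 ± 0.09, adjusted p = 3.13e-08), and Gpx1 (a glutathione peroxidase) and Gstt1 (a glutathione transferase) differed by -1.17 ± 0.09 (adjusted p = 6.49e-07) and -1.64 ± 0.09 (adjusted p = 4.13e-08).

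Sterol and fatty acid synthesis genes were higher. Of 30 cholesterol synthesis and uptake genes 27 rose and none fell, with a median log2 difference of 0.36 and none at 2-fold. Mvd, a decarboxylase late in the mevalonate route, was at 276, 344 and 268 CPM in the untreated libraries and 533, 547 and 570.3 CPM after shCon EVs. All treated libraries exceeded the untreated ones, with a log2 difference of 0.89 ± 0.08 (adjusted p = 2.55e-06). Tm7sf2 and Insig1 differed by 0.71 ± 0.08 (adjusted p = 1.18e-05) and 0.61 ± 0.07 (adjusted p = 3.08e-05). Of 17 fatty acid synthesis and desaturation genes 11 rose and none fell. Fasn (fatty acid synthase) was at 805, 985 and 943 CPM in the untreated libraries and 1568, 1599 and 1555 CPM after shCon EVs, Acaca (acetyl-CoA carboxylase) at 269.99, 231 and 269 CPM without vesicles and 452, 433 and 411 CPM with them and Scd1 (a desaturase) at 649.9, 639.9 and 647 CPM and then 973, 957 and 963 CPM. These did not overlap and differed by 0.79 ± 0.09 (adjusted p = 1.97e-05), 0.75 ± 0.08 (adjusted p = 8.83e-06) and 0.58 ± 0.06 (adjusted p = 9.18e-06), with fractional estimates for Acaca and Scd1.

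Lysosome genes rose too. Of 35 lysosome and autophagy genes 22 rose and 1 fell. Sqstm1 (p62), which carries cargo to autophagosomes, was at 841, 934 and 837 CPM in the untreated libraries and 1654, 1643 and 1679 CPM after shCon EVs (0.93 ± 0.06, adjusted p = 1.25e-07). Hexa (a hexosaminidase) differed by 0.66 ± 0.07 (adjusted p = 7.99e-06), Gla (alpha-galactosidase) by 0.56 ± 0.09 (adjusted p = 0.000264) and Mcoln1 (a lysosomal channel) by 0.70 ± 0.13 (adjusted p = 0.000986). Tfeb, the factor that turns on lysosome genes, was the 1 that fell (-0.35 ± 0.10, adjusted p = 0.018), a call lost in 3 fits (adjusted p = 0.0539 to 0.0807 without untreated replicate 2 or shCon replicate 1 or 2), and Ctsb, Ctsl and Lamp2 were not called. Genes of endocytosis and vesicle uptake were split, with 11 higher and 16 lower of 46. Cav1 (caveolin 1) was at 347, 339 and 345 CPM in the untreated libraries and 194, 186 and 185 CPM after shCon EVs (-0.87 ± 0.05, adjusted p = 3.53e-08), and the scavenger receptors Scara5 and Scara3 fell, with differences of -0.83 ± 0.08 (adjusted p = 8.28e-06) and -0.62 ± 0.07 (adjusted p = 1.52e-05). The lipoprotein receptors Vldlr (1.14 ± 0.07, adjusted p = 9.67e-08) and Lrp8 (0.66 ± 0.08, adjusted p = 3.17e-05) and Scarb2 (0.62 ± 0.08, adjusted p = 8.52e-05) rose. Clathrin heavy chain, Cltc, was at 825, 724 and 853 CPM in the untreated libraries and 861, 856 and 843 CPM after shCon EVs, with overlapping ranges and no call.

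Genes of the respiratory chain were more often lower than higher. Of 53 nuclear-encoded respiratory chain genes 34 fell and 1 rose, with a median of -0.30, and 28 fell without untreated replicate 2. Cox7b, Cox6c, Atp5g3 and Ndufa5 differed by -0.57 ± 0.15 (adjusted p = 0.0086), -0.54 ± 0.13 (adjusted p = 0.00481), -0.54 ± 0.08 (adjusted p = 0.000214) and -0.70 ± 0.13 (adjusted p = 0.000827). None of the 13 mitochondrially encoded genes was called with all libraries, and 3 were higher without untreated replicate 2. mt-Co1 was at 1301, 4424 and 2691 CPM in the untreated libraries and 3843, 4666 and 4509 CPM after shCon EVs, with overlapping ranges and untreated replicate 1 the lowest. Among 23 glycolysis genes 11 fell and 3 rose. Pfkfb3, which makes the activator of phosphofructokinase, was at 68.03, 68.8 and 68.7 CPM in the untreated libraries and 20.4, 23.5 and 23.4 CPM after shCon EVs (-1.61 ± 0.06, adjusted p = 3.36e-09), and Ldha and Ldhb differed by -0.74 ± 0.06 (adjusted p = 6.66e-07) and -0.89 ± 0.05 (adjusted p = 6.7e-08). Gapdh, Pkm and Pgk1 were not called. Fatty acid oxidation genes fell in 11 of 24 cases and rose in 3, the largest fall being in Acadvl (-0.96 ± 0.07, adjusted p = 4.03e-07). In the adipogenic list 9 of 20 fell and 3 rose, the falls including Pparg, the master regulator of fat cells, at 12.6, 12.997 and 13.5 CPM in the untreated libraries and 5.90, 5.21 and 5.76 CPM after shCon EVs (-1.21 ± 0.08, adjusted p = 2.42e-07), Fabp4 (-0.79 ± 0.14, adjusted p = 0.000616) and Dlk1 (-0.78 ± 0.06, adjusted p = 9.96e-07). Plin2, which coats lipid droplets, rose (0.53 ± 0.06, adjusted p = 1.31e-05).

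Matrix genes changed in both directions. Of 34 collagen chain genes 9 rose and 5 fell, a called share of 41.2% beside 38.1% of all genes. Col1a1 was at 4309, 4529 and 4766 CPM in the untreated libraries and 6590.5, 6565 and 6516 CPM after shCon EVs (0.53 ± 0.09, adjusted p = 0.000548), while its partner chain Col1a2, at 4940.5, 4773 and 5045 CPM without vesicles and 5181, 5266 and 5162 CPM with them, was not called (0.08 ± 0.05, adjusted p = 0.226). Minor fibrillar chains rose, Col11a1 from 7.36, 7.66 and 9.42 CPM to 22.97, 21.9 and 23.8 CPM (1.49 ± 0.11, adjusted p = 5.41e-07) and Col5a3 by 1.00 ± 0.21 (adjusted p = 0.00211). Col6a3, Col8a1 and Col23a1 fell, with differences of -0.61 ± 0.09 (adjusted p = 0.000137), -0.52 ± 0.06 (adjusted p = 3.92e-05) and -0.62 ± 0.10 (adjusted p = 0.000372). Among matricellular proteins 7 rose and 11 fell of 24. Fn1 (fibronectin) was at 3878, 4028 and 4535 CPM in the untreated libraries and 7312, 7281 and 7118 CPM after shCon EVs. Postn (periostin) was at 372, 322 and 384 CPM without vesicles and 988, 953 and 895 CPM with them. Both rose without overlap, with log2 differences of 0.80 ± 0.07 (adjusted p = 3.38e-06) and 1.40 ± 0.09 (adjusted p = 9.67e-08).

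Spp1 (osteopontin) was at 817, 695 and 818 CPM in the untreated libraries and 284, 287 and 293 CPM after shCon EVs, Tnc (tenascin C) at 448, 406 and 480.5 CPM without vesicles and 191, 202 and 203 CPM with them and Tnn (tenascin N) at 41.2, 16.4 and 50.7 CPM and then 2.58, 3.35 and 3.28 CPM. The treated libraries were the lower ones in each, with log2 differences of -1.43 ± 0.09 (adjusted p = 9.22e-08), -1.16 ± 0.06 (adjusted p = 3.87e-08) and -3.55 ± 0.34 (adjusted p = 5.42e-06). Thbs1 (thrombospondin 1) fell as well (-0.50 ± 0.07, adjusted p = 0.000183). Hyaluronan genes fell in 8 and rose in 1 of 12 cases. Has2, the main hyaluronan synthase of fibroblasts, was at 168, 175 and 171 CPM in the untreated libraries and 13.02, 11.4 and 9.98 CPM after shCon EVs. Has2 had the largest fall among calls with a mean of at least 2 CPM apart from Ranbp3l, at -3.90 ± 0.13 (adjusted p = 2.23e-09). The receptor Cd44 and the hyaluronidase Tmem2 fell as well, with differences of -0.49 ± 0.06 (adjusted p = 2.3e-05) and -0.97 ± 0.14 (adjusted p = 0.000166). Proteoglycan genes rose in 2 and fell in 3 of 15 cases, with 10 not called and a median log2 difference of 0.08. Their called share was 33.3%, beside 38.1% of all genes, and Vcan and Dcn were among the falls. Vcan (versican), a proteoglycan that binds hyaluronan, was at 821, 619.8 and 826 CPM in the untreated libraries and 350.2, 339 and 325 CPM after shCon EVs (-1.16 ± 0.12, adjusted p = 1.29e-05), and Dcn (decorin) differed by -0.56 ± 0.11 (adjusted p = 0.00179).

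Elastic fibre and lysyl oxidase genes fell in 9 and rose in 5 of 20 cases. Fbln5 (fibulin 5), which guides elastin assembly, was at 139, 156 and 150.3 CPM in the untreated libraries and 424, 412 and 410.4 CPM after shCon EVs, and Mfap4, a microfibril-associated protein, at 0.659, 0.648 and 1.10 CPM without vesicles and 5.15, 5.68 and 5.33 CPM with them. Neither pair of ranges overlapped, and the differences were 1.48 ± 0.06 (adjusted p = 5.59e-09) and 2.74 ± 0.21 (adjusted p = 7.44e-07). Efemp1, Emilin2, Ltbp1 and Ltbp2 fell (-0.95, -1.18, -1.15 and -0.71). Mfap4 shares exon positions with Mapk7 on the other strand, and Mapk7 was not called. Matrix protease genes rose in 13 and fell in 11 of 39 cases. Mmp13 (collagenase 3) was at 16.8, 14.1 and 14.6 CPM in the untreated libraries and 76.8, 71.2 and 70.8 CPM after shCon EVs, Mmp2 (gelatinase A) at 959.8, 954 and 907 CPM without vesicles and 2219, 2266 and 2260.1 CPM with them and Ctsk (cathepsin K) at 6.99, 7.01 and 5.41 CPM and then 25.5, 23.2 and 23.8 CPM. All 3 were higher in every treated library, with log2 differences of 2.26 ± 0.13 (adjusted p = 6.39e-08), 1.26 ± 0.05 (adjusted p = 5.59e-09) and 1.90 ± 0.12 (adjusted p = 1.13e-07). The inhibitor Timp1 fell from 194, 200.03 and 191 CPM to 92.7, 92.9 and 89.3 CPM (-1.09 ± 0.05, adjusted p = 1.72e-08), and Timp2 was not called (0.05 ± 0.04, adjusted p = 0.429). Basement membrane genes rose in 5 and fell in 1 of 17 cases, Agrn (agrin, 1.11 ± 0.13, adjusted p = 2.48e-05) among the rises. Their called share was 35.3%, beside 38.1% of all genes.

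Contractile genes of smooth muscle and myofibroblasts were lower. Of 24 tested 16 fell, 14 of them without untreated replicate 2, and none rose. Acta2 (smooth muscle actin) was at 1321, 1382 and 1360.4 CPM in the untreated libraries and 619.5, 625 and 651 CPM after shCon EVs. Tagln (transgelin) was at 213, 219 and 212 CPM without vesicles and 100.5, 99.5 and 101 CPM with them, and Myl9 (a myosin light chain) at 87.7, 90.2 and 91.3 CPM and then 27.6, 28.5 and 29.6 CPM. The treated libraries were lower in all of these, with log2 differences of -1.10 ± 0.06 (adjusted p = 4.47e-08), -1.10 ± 0.05 (adjusted p = 7.88e-09) and -1.65 ± 0.07 (adjusted p = 5.59e-09). The cytoplasmic actins fell too, Actb from 3108, 3140.3 and 3091 CPM to 1780.0, 1785 and 1885 CPM (-0.78 ± 0.05, adjusted p = 3.11e-07) and Actg1 from 2769, 2882 and 2662 CPM to 1731, 1732 and 1762 CPM (-0.67 ± 0.05, adjusted p = 3.41e-07), with fractional estimates in all libraries for both. Among fibroblast activation markers, a panel that includes Acta2, Fn1, Postn and Col1a1, 6 rose and 7 fell of 15, with Acta2, Tagln and Il6 among the falls and Fn1, Postn and Col1a1 among the rises. S100a4, another marker of that panel, was at 1063, 884 and 946 CPM in the untreated libraries and 391, 403 and 409 CPM after shCon EVs (-1.27 ± 0.14, adjusted p = 1.59e-05), with estimates that were not whole in any of the 6 libraries. S100 genes fell in 8 of 11 cases, S100a10 among them (-1.02 ± 0.13, adjusted p = 4.6e-05). S100g, which binds calcium, was the 1 that rose, from 0.256, 0.0381 and 0.184 CPM to 0.859, 0.896 and 0.648 CPM (2.29 ± 0.58, adjusted p = 0.00793), with at most 7 counts in an untreated library.

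YAP and TEAD targets did not move as 1 group. Of 26, 7 rose and 8 fell. Cyr61 and Ankrd1 fell, with differences of -0.74 ± 0.08 (adjusted p = 1.48e-05) and -0.71 ± 0.09 (adjusted p = 4.43e-05), whereas Ctgf, of the same protein family as Cyr61, went from 10.5, 14.1 and 9.93 CPM to 14.7, 16.7 and 15.8 CPM (0.45 ± 0.13, adjusted p = 0.0152). That call did not hold with fewer libraries (adjusted p = 0.0606 to 0.0768 without untreated replicate 1 or 3 or shCon replicate 2). Gadd45a, a stress gene that is also on this list, was at 27.6, 28.01 and 24.2 CPM in the untreated libraries and 91.9, 92.3 and 91.4 CPM after shCon EVs (1.79 ± 0.07, adjusted p = 3.03e-09). Immediate-early factor genes fell in 10 and rose in 3 of 24 cases. Fos, Egr1 and Nr4a1 differed by -1.50 ± 0.17 (adjusted p = 2.02e-05), -1.08 ± 0.09 (adjusted p = 2.36e-06) and -1.47 ± 0.10 (adjusted p = 2.31e-07), and Klf4 rose (0.90 ± 0.08, adjusted p = 4.07e-06).

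Genes that report ERK activity were lower. Of 19 ERK output and feedback genes 14 fell and 1 rose, with a median of -0.93. Dusp6, a phosphatase of ERK, was at 23.9, 23.8 and 25.8 CPM in the untreated libraries and 9.30, 9.86 and 9.40 CPM after shCon EVs. Dusp5, a nuclear phosphatase of ERK, was at 8.57, 9.30 and 8.87 CPM without vesicles and 1.29, 1.63 and 1.95 CPM with them. Treated libraries were lower without overlap, with log2 differences of -1.36 ± 0.08 (adjusted p = 7.34e-08) and -2.46 ± 0.14 (adjusted p = 4.93e-08). Etv4, a target factor, fell too (-1.56 ± 0.13, adjusted p = 1.46e-06). Dusp4 was the riser (0.78 ± 0.08, adjusted p = 8.67e-06). In the EGF receptor list 6 of 12 fell and 1 rose. Egfr was at 147, 113 and 156 CPM in the untreated libraries and 64.01, 63.4 and 61.3 CPM after shCon EVs (-1.14 ± 0.10, adjusted p = 2.09e-06), its feedback inhibitor Errfi1 at 70.1, 60.1 and 66.9 CPM without vesicles and 25.4, 24.5 and 25.7 CPM with them (-1.38 ± 0.06, adjusted p = 1.31e-08) and the ligand gene Nrg1 (neuregulin 1) at 231, 227 and 235 CPM and then 98.9, 99.5 and 99.3 CPM (-1.22 ± 0.04, adjusted p = 3.03e-09). Lrig1, which promotes removal of EGF receptors, rose (0.57 ± 0.05, adjusted p = 2.47e-06), and Erbb2 was not called.

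Inhibitor of DNA binding genes, classical BMP targets, had among the deepest falls. Id3 was at 89.1, 105 and 96.7 CPM in the untreated libraries and 9.55, 10.6 and 10.4 CPM after shCon EVs. Id2 was at 11.97, 14.9 and 14.3 CPM without vesicles and 1.82, 1.49 and 1.22 CPM with them, and Id1 at 31.6, 39.3 and 37.5 CPM and then 7.51, 7.47 and 7.31 CPM. Every treated library was below every untreated one, and the differences were -3.25 ± 0.08 (adjusted p = 1.96e-10), -3.18 ± 0.15 (adjusted p = 1.31e-08) and -2.28 ± 0.10 (adjusted p = 6.39e-09). The whole BMP list gave 8 falls and 4 rises of 20. The BMP antagonist Grem1 fell from 2546, 2091 and 2421 CPM to 1244, 1272 and 1219 CPM (-0.92 ± 0.09, adjusted p = 8.57e-06), and the receptor genes Bmpr1a and Bmpr2 were not called. TGF-beta, activin and Nodal pathway genes rose in 8 and fell in 11 of 27 cases. Pmepa1, a TGF-beta target that feeds back on the pathway, was at 34.3, 39.8 and 36.1 CPM in the untreated libraries and 83.6, 83.5 and 80.2 CPM after shCon EVs (1.17 ± 0.07, adjusted p = 9.71e-08), and Skil, another feedback target, differed by 0.80 ± 0.10 (adjusted p = 3.72e-05) and the ligand gene Tgfb1 by 0.62 ± 0.07 (adjusted p = 2.94e-05). The ligand gene Tgfb2 and Fst (follistatin), which traps activin, fell, with differences of -0.64 ± 0.11 (adjusted p = 0.000503) and -1.22 ± 0.06 (adjusted p = 3.06e-08).

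Hedgehog genes fell in 7 and rose in 1 of 10 cases. Hhip, which binds hedgehog ligands and is itself a target, was at 42.2, 35.3 and 51.4 CPM in the untreated libraries and 4.04, 4.88 and 4.86 CPM after shCon EVs (-3.22 ± 0.16, adjusted p = 1.74e-08). Ptch1, the receptor, differed by -0.30 ± 0.07 (adjusted p = 0.00441), Gli2 and Gli3 by -0.53 ± 0.10 (adjusted p = 0.00121) and -0.68 ± 0.08 (adjusted p = 1.91e-05), and Smo was not called. Wnt pathway genes rose in 8 and fell in 10 of 33 cases. The secreted antagonists Sfrp1 and Sfrp2 were at 137, 137 and 139 CPM in the untreated libraries and 41.5, 39.1 and 35.99 CPM after shCon EVs and at 77.04, 73.9 and 76.2 CPM without vesicles and 28.8, 27.5 and 26.6 CPM with them, in that order. They differed by -1.82 ± 0.09 (adjusted p = 1.93e-08) and -1.45 ± 0.05 (adjusted p = 3.03e-09) without overlap. Lef1, a Wnt transcription factor, rose (1.42 ± 0.11, adjusted p = 5.99e-07), as did the ligand gene Wnt9a (1.32 ± 0.16, adjusted p = 4.38e-05). Notch genes gave 2 rises and 4 falls of 13, a called share of 46.2% beside 38.1% of all genes. Rbpj, at -0.73 ± 0.09 (adjusted p = 5.62e-05), and Notch3, at -0.64 ± 0.10 (adjusted p = 0.000291), are the lower ones named here.

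Growth factor genes were partly lower. Hgf was at 149, 125 and 145 CPM in the untreated libraries and 60.3, 62.2 and 60.2 CPM after shCon EVs (-1.19 ± 0.11, adjusted p = 5.02e-06) and Ptn (pleiotrophin) at 613, 467 and 560.1 CPM without vesicles and 268, 269 and 264 CPM with them (-1.03 ± 0.10, adjusted p = 3.93e-06). Igf2 went from 48.5, 43.8 and 54.6 CPM to 14.9, 16.5 and 13.04 CPM (-1.72 ± 0.13, adjusted p = 4.69e-07), while Irs1, the adaptor of the IGF and insulin receptors, went from 55.4, 45.7 and 59.2 CPM to 112, 105 and 103 CPM (1.00 ± 0.08, adjusted p = 1.05e-06). Of 19 IGF family genes 6 rose and 8 fell. Fgf23, a phosphate-regulating hormone, was at 17.4, 22.1 and 14.5 CPM in the untreated libraries and 1.32, 1.66 and 1.37 CPM after shCon EVs (-3.62 ± 0.19, adjusted p = 2.97e-08), and Fgf7 and Fgf10, which act on epithelium, differed by -0.47 ± 0.07 (adjusted p = 0.0003) and -0.85 ± 0.08 (adjusted p = 4.65e-06). Fgfr1 rose (0.48 ± 0.07, adjusted p = 0.000212). Pdgfra fell (-0.73 ± 0.09, adjusted p = 2.8e-05) and Pdgfrb rose (0.33 ± 0.06, adjusted p = 0.00106), so the PDGF receptors went opposite ways. Vegfa was at 87.9, 130.1 and 89.1 CPM in the untreated libraries and 147, 159.5 and 169.8 CPM after shCon EVs (0.63 ± 0.18, adjusted p = 0.0126), not called in all fits (adjusted p = 0.0604 to 0.0629 without untreated replicate 1 or 3), and Vegfc differed by -0.67 ± 0.07 (adjusted p = 9.66e-06). The 48 axon guidance genes gave 12 rises and 8 falls, a called share of 41.7% beside 38.1% of all genes. The count of calls was 13 without untreated replicate 1 or without shCon replicate 1.

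Iron genes and clock genes held some large single changes. Slc40a1 (ferroportin), which exports iron, was at 2.05, 1.87 and 1.99 CPM in the untreated libraries and 12.8, 11.8 and 11.2 CPM after shCon EVs (2.59 ± 0.12, adjusted p = 1.56e-08). The ferritin chains went opposite ways, Fth1 from 4415, 4395 and 4331 CPM to 3566, 3527 and 3598 CPM (-0.30 ± 0.05, adjusted p = 0.000954) and Ftl1 from 1777, 1956 and 1750.2 CPM to 2607, 2487 and 2553 CPM (0.48 ± 0.06, adjusted p = 2.34e-05), with fractional estimates for Ftl1 in all libraries. The zinc and iron transporter Slc39a14 fell (-0.80 ± 0.05, adjusted p = 8.82e-08), and Slc11a2, another iron importer, rose (0.68 ± 0.06, adjusted p = 1.05e-06). Of 18 circadian clock genes 7 rose and 1 fell, a called share of 44.4% beside 38.1% of all genes. The repressors Bhlhe41 and Ciart were at 10.7, 10.4 and 8.46 CPM in the untreated libraries and 22.9, 22.9 and 22.9 CPM after shCon EVs and at 3.51, 4.50 and 3.86 CPM without vesicles and 7.41, 8.93 and 9.84 CPM with them, with differences of 1.22 ± 0.09 (adjusted p = 5.41e-07) and 1.14 ± 0.15 (adjusted p = 6.49e-05).

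The next genes were named for size alone. Among rises, P2rx3, a purinergic channel, was at 2.67, 3.32 and 2.28 CPM in the untreated libraries and 21.3, 20.1 and 18.7 CPM after shCon EVs (2.86 ± 0.11, adjusted p = 3.93e-09). Its exons overlap those of Ssrp1 on the other strand, and Ssrp1 differed by -0.22 ± 0.05 (adjusted p = 0.00374) in the opposite direction. Slc6a9, a glycine transporter, was at 25.96, 35.4 and 29.1 CPM without vesicles and 102, 113 and 122 CPM with them (1.90 ± 0.14, adjusted p = 4.69e-07), Plxdc1 at 0.989, 0.800 and 0.625 CPM and then 4.22, 4.25 and 3.35 CPM (2.29 ± 0.22, adjusted p = 5.92e-06), and Chd5 and Angptl6 differed by 2.41 ± 0.22 (adjusted p = 3.36e-06) and 2.00 ± 0.13 (adjusted p = 1.97e-07). Slc6a9, Chd5 and Angptl6 also have genes on the other strand over their exons. Among falls, Aqp1 (a water channel) was at 218, 153 and 245 CPM in the untreated libraries and 21.9, 24.8 and 27.9 CPM after shCon EVs (-3.04 ± 0.15, adjusted p = 1.71e-08). Cck (cholecystokinin) was at 32.2, 24.2 and 37.9 CPM without vesicles and 3.51, 3.55 and 3.42 CPM with them (-3.17 ± 0.15, adjusted p = 1.56e-08), and U90926 differed by -3.22 ± 0.17 (adjusted p = 2.87e-08). Ranbp3l was at 6.30, 1.03 and 6.14 CPM in the untreated libraries and 0.143, 0.299 and 0.396 CPM after shCon EVs (-3.99 ± 0.65, adjusted p = 0.000381), with untreated replicate 2 nearer to the treated libraries than its replicates were.

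**Figure D4:**
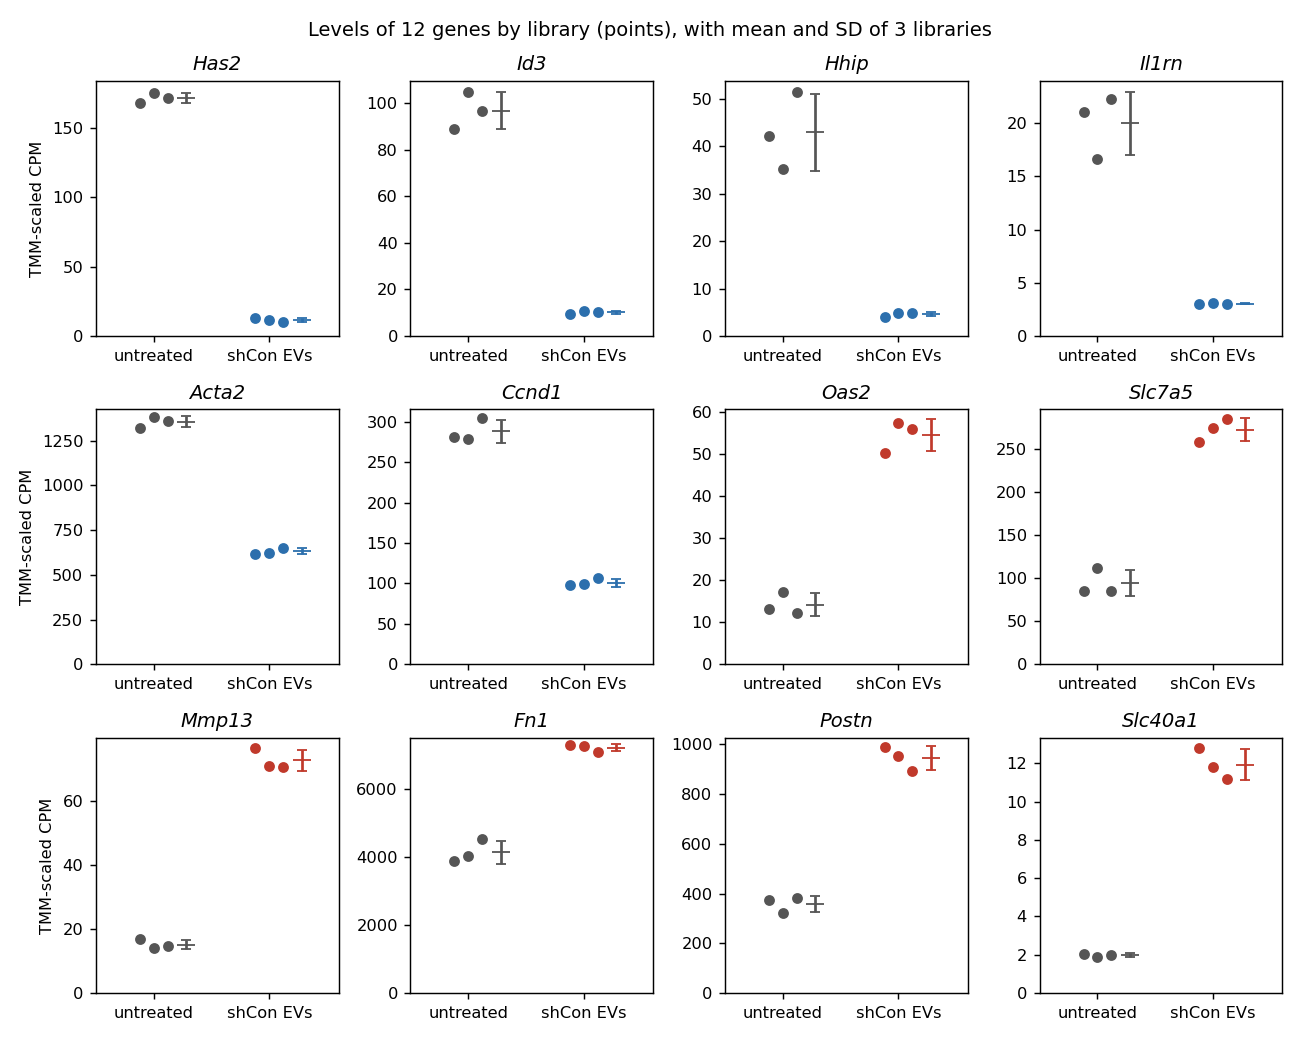
CPM of 12 genes in each of the 3 untreated and 3 shCon EV libraries (points), with the mean (line) and SD (bar) of the group; each panel has its own axis from 0. In no panel do the points of the groups overlap.

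Ribosomal protein and HOX genes gave few calls. Of 76 cytosolic ribosomal protein genes only Rpl12 was called, from 27.8, 34.7 and 26.01 CPM to 38.5, 37.5 and 41.8 CPM (0.41 ± 0.10, adjusted p = 0.00748), and its estimates were fractional in all libraries. The list had a median of -0.01, with 2 calls without untreated replicate 2 and 5 in a model of only the 2 groups. HOX genes, which record the position of a cell along the body, gave 2 rises and 4 falls of 26 (23.1% against 38.1% of all genes), Hoxc13 (-0.60 ± 0.09, adjusted p = 0.000144) among the falls. Of 33 ribosome biogenesis genes 2 rose and 9 fell, a called share of 33.3% beside 38.1% of all genes, and Ncl (nucleolin) and Npm1 (nucleophosmin) were not called.

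The responses to the other EVs share the shCon libraries with this comparison, so values are set side by side and no likeness between them is read. Against shCon EVs, shCr EVs gave 1247 calls (8.73%), 746 higher (5.22%) and 501 lower (3.51%), a count that fell to 688, 632 or 666 without shCon replicate 1, 2 or 3. CrOE EVs gave 10373 calls (72.6%), 5218 higher (36.5%) and 5155 lower (36.1%). For the replication genes, shCr minus shCon had 1 higher and 2 lower calls of 39, and CrOE minus shCon had 33 higher and 1 lower. Mitosis genes had 0 higher and 21 lower calls of 43 with shCr EVs, and 27 higher and 5 lower with CrOE EVs. Interferon-stimulated genes had 4 higher and 0 lower calls of 50 with shCr EVs, and 1 higher and 48 lower with CrOE EVs. ERK output genes had 10 higher and 0 lower calls of 19 with shCr EVs, and 10 higher and 7 lower with CrOE EVs. Cholesterol genes had 11 higher and 0 lower calls of 30 with shCr EVs, and 1 higher and 29 lower with CrOE EVs.

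For single genes, Id3 was at 20.8, 22.8 and 23.03 CPM with shCr EVs and 4.35, 4.71 and 4.21 CPM with CrOE EVs, which is 1.12 ± 0.08 and -1.20 ± 0.09 against shCon EVs on the log2 scale (adjusted p = 5.17e-06 and 5.58e-08). Fbln5 was at 132, 131 and 136 CPM with shCr EVs and 39.01, 42.9 and 45.6 CPM with CrOE EVs, -1.64 ± 0.06 and -3.29 ± 0.07 against shCon EVs (adjusted p = 3.65e-08 and 4.61e-13). Fn1 was at 3245, 3721 and 3947 CPM and 3730.4, 3896 and 3654 CPM, -0.99 ± 0.07 and -0.94 ± 0.07 (adjusted p = 7.46e-06 and 1.03e-07). Oas2 was at 34.4, 38.2 and 64.9 CPM and 0.539, 0.611 and 0.870 CPM, -0.25 ± 0.20 and -6.32 ± 0.30 (adjusted p = 0.514 and 8.35e-10). Id3 was thus higher, and Fbln5 and Fn1 lower, with shCr EVs than with shCon EVs. Oas2 was not called between shCr and shCon EVs and was lower with CrOE EVs.

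**Figure D5:**
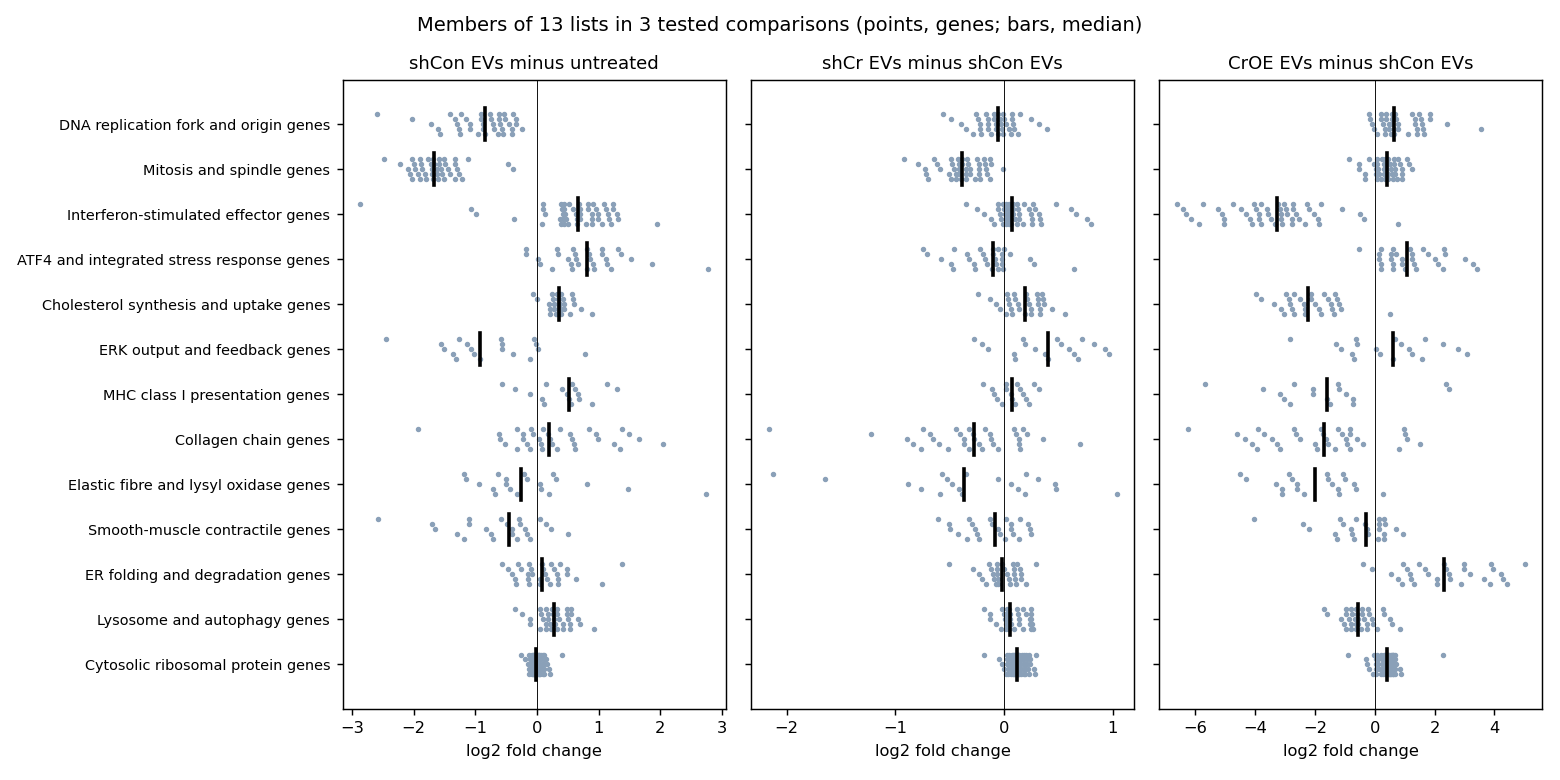
Log2 differences of the members of 13 lists in 3 comparisons (shCon EVs minus untreated, shCr EVs minus shCon EVs and CrOE EVs minus shCon EVs), 1 point per tested gene (spread vertically only to be visible) with the list median as a bar; the horizontal scales differ between panels. Mitosis genes lie below 0 in the first panel, and interferon-stimulated genes lie mostly above 0 there and below 0 in the third.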

How the data were processed

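RNA of 12 3T3 fibroblast libraries, 3 in each of 4 groups, was sequenced; groups were taken from the sample labels. The authors deposited a table of estimated counts per gene for all libraries. Of its values 39.8% were not whole and 19.7% lay more than 0.05 from a whole number. They were therefore rounded to whole numbers before testing, as the design had allowed for. Per the submitters' processing notes mm39 and featureCounts were used; their roles and versions, and any use of strand in counting, are not given in the sources used here. Estimates that are fractional may share reads between similar genes: 50 of the 286 genes named here had fractional estimates in all 6 libraries, and 71 have exons overlapped by a gene on the other strand. The 3 CrOE columns carry the name of the protein and were matched by elimination. The table had 32544 rows, of which 27 had symbols turned into dates (24 tested).

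Counts were tested with edgeR 4.0.16 in R 4.3.3 (filterByExpr, TMM, quasi-likelihood F-test, 1 mean per group over all 12 libraries, 8 residual degrees of freedom), with Benjamini-Hochberg adjustment over 14279 genes and a call at an adjusted p under 0.05. The SE was the log2 difference divided by the square root of F. In counts simulated for this comparison, 79 of 100 genes changed by 1 and 92 of 100 changed by 2 on the log2 scale were recovered, with 5 false calls among 14027 genes. The simulation used the spread that edgeR itself estimated and changed only those genes, only in the shCon libraries. In the data 38.1% of genes were called, so these rates need not hold there. Alternatives were other size factors, filters and fold thresholds, DESeq2 1.42.0, a model of only the 2 groups, the replicate number as a block and each library left out.

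The gene lists and the rules for naming genes were written with earlier results of these data known. Genes were named by 5 rules. These were the 12 largest rises and falls among non-overlapping calls of at least 2 CPM, the 6 largest gains and losses in CPM, up to 4 called members per list and direction with up to 3 uncalled ones, Tdgf1, and genes that define a list's role. Not all genes so chosen are printed. Kif11, Espl1, Oas3, S100g, Mapk7 and Ssrp1 fall outside these rules and were chosen after their values were seen, the last pair as overlapping genes. Promoters came from RefSeq for GRCm38.p6 and matched 10678 of 14279 tested genes (74.8%); gene types and overlaps came from GENCODE M21, with no coordinates used. Some genes of the lists are not reported here.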

Additional observations from a re-analysis of the deposited data

Results flagged for a closer look

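For 6 of the 36 genes named for the size of their change, the difference between shCr EVs and shCon EVs was itself called. It was at least 1 on the log2 scale, in either direction. Hhip was at 17.6, 15.1 and 13.04 CPM with shCr EVs against 4.04, 4.88 and 4.86 CPM with shCon EVs, a log2 difference of 1.72 (adjusted p = 3.18e-05). Id2 was at 3.35, 3.17 and 3.26 CPM with shCr EVs, 1.10 above shCon EVs (adjusted p = 0.000925), and Id3 was 1.12 above them (adjusted p = 5.17e-06). Ptgds, at 22.03, 19.1 and 17.995 CPM with shCr EVs, differed by 2.47 (adjusted p = 5.53e-07). All 3 shCr libraries of these 4 genes lay above the shCon libraries. In the other direction, Mfap4 was at 1.06, 1.09 and 1.51 CPM with shCr EVs, with a difference of -2.13 (adjusted p = 3.37e-05), and Slc40a1 at 3.45, 3.20 and 3.07 CPM, with a difference of -1.88 (adjusted p = 1.79e-06). Of the 36 genes, 18 had a called difference between shCr and shCon EVs, where 8.73% of all genes were called, and 33 between CrOE and shCon EVs, where 72.6% were. These tests are edgeR's quasi-likelihood test in the model of all 12 libraries, and they share the shCon libraries with the comparison reported above. The 36 genes were chosen by their values in those same shCon libraries, which favours calls against shCon EVs. Their counts therefore cannot be read against the shares of all genes. No test for outlying samples was run, since groups had 3 libraries. Untreated replicate 2, which stood apart on the second principal component, was kept in the main fit.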

How the results depend on the processing

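In the comparison of shCon EVs with untreated cells, requiring a 2-fold change left 863 of the 5447 calls, 358 higher and 505 lower. With 1 library left out at a time it gave 4250 to 5539 calls (1896 to 2647 higher and 2291 to 2892 lower). The other settings gave 5068 to 6279 calls, the lowest without a filter on low counts and the highest in a model of only the 2 groups. DESeq2 gave 5513. With the replicate number as a block, 5691 genes were called, 2710 higher and 2981 lower. Deviations from the group mean in same-numbered untreated and shCon libraries had r = 0.0784, -0.00474 and -0.0276 across genes. Over all groups, same-numbered pairs ran from -0.204 (untreated and CrOE replicate 2) to 0.315 (untreated and shCr replicate 1). Pairs with different numbers ran from -0.364 to 0.35. With 3 libraries a group, these values cannot show whether a number marks a shared batch. Calls between shCr and shCon EVs numbered 641 in a model of only those groups, 108 with a 2-fold change and 632 to 1396 with 1 library left out. Calls between CrOE and shCon EVs numbered 3884 with a 2-fold change and 9750 to 9897 with 1 library left out. The replicate block gave 1281 and 10511 for these comparisons.

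Counts of list members moved by over 1.5 times in 83 fits, most often with the 2-fold rule, and stayed within that in 939. Of 286 named genes, 9 lost their call in at least 1 fit, in 36 fits in all. The values given beside these genes are from fits with a library left out and do not cover all 36. Another 11 genes, uncalled in the main fit, were called in at least 1. Among those 11, Stat2 had an adjusted p of 0.0223 with the replicate block and 0.00749 in the model of only the 2 groups. Of uncalled genes, the log2 difference changed sign with 1 library left out for Atf3 (range -0.0094 to 0.16, lowest without untreated replicate 3), Cad (-0.017 to 0.076, lowest without untreated replicate 1), Cdkn2a (-0.0082 to 0.086, lowest without untreated replicate 3), Smo (-0.0022 to 0.023, lowest without untreated replicate 1), Myc (-0.072 to 0.028, highest without shCon replicate 1 and also above 0 without untreated replicate 2) and Lars2 (-2.19 to 0.44, highest without untreated replicate 3). In the 150 bases before the start, TTTGAA was in 34.2% of mitosis promoters (9.07% of all), TTTCCCGC in 5.13% of replication promoters (0.603%), TTTGGCGC in 7.69% (0.268%) and the ATF4 element in 18.8% of promoters of its list (2.23%). The part of depth in the calls was not tested; 15.2% of genes below 1 CPM were called. Expression in untreated replicate 2 stood apart, and lists that lead the report were counted without it. Every alternative run was a planned one. The gene lists counted in them had been written with earlier results of these data known.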

Other observations

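Cell adhesion and coagulation genes were split. Of 29 integrin, syndecan and glypican genes 10 rose and 7 fell. Itgbl1, an integrin-like secreted protein, was at 7.03, 7.70 and 7.03 CPM in the untreated libraries and 20.002, 20.3 and 20.03 CPM after shCon EVs (1.47 ± 0.08, adjusted p = 4.03e-08), and Itga8 and Itgb3, integrin chains for matrix proteins with an RGD motif, differed by 0.94 ± 0.17 (adjusted p = 0.000852) and 0.81 ± 0.08 (adjusted p = 6.49e-06). Itga1, a collagen receptor chain, fell (-0.97 ± 0.15, adjusted p = 0.000238), as did the heparan sulphate proteoglycan gene Sdc4, from 169.9, 170.5 and 167 CPM to 60.9, 61.7 and 65.4 CPM (-1.43 ± 0.06, adjusted p = 7.88e-09), with fractional estimates in all 6 libraries. The common chain Itgb1 was not called. Plasminogen and coagulation genes fell in 9 and rose in 3 of 16 cases, the falls led by Thbd (thrombomodulin, -1.05 ± 0.06, adjusted p = 3.08e-08) and Pros1 (protein S, -0.72 ± 0.08, adjusted p = 1.95e-05). Of 20 collagen folding and processing genes 3 rose and 7 fell, P4ha3 (a prolyl hydroxylase subunit, -1.29 ± 0.10, adjusted p = 8.52e-07) and Adamts3 (a procollagen protease, -1.20 ± 0.19, adjusted p = 0.000285) among the falls, and the collagen chaperone gene Serpinh1 was not called.

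Receptors and enzymes of small hydrophobic ligands held single large changes. Ahr, the aryl hydrocarbon receptor, was at 41.4, 41.3 and 38.3 CPM in the untreated libraries and 17.4, 16.8 and 16.2 CPM after shCon EVs (-1.26 ± 0.06, adjusted p = 2.53e-08). Cyp26b1, which breaks down retinoic acid, fell (-1.54 ± 0.17, adjusted p = 1.48e-05), and Dhrs3 and Rdh10, of the first steps of retinoid metabolism, rose (0.85 ± 0.10 and 0.74 ± 0.08). Cyp2f2 went from 20.1, 19.6 and 21.5 CPM to 2.47, 3.52 and 2.56 CPM (-2.84 ± 0.14, adjusted p = 8.63e-08). The glucocorticoid targets Tsc22d3 and Fkbp5 went opposite ways, by 1.00 ± 0.10 (adjusted p = 6.1e-06) and -0.77 ± 0.07 (adjusted p = 2.16e-06). The hypoxia-inducible list gave 4 rises and 7 falls of 23, a called share of 47.8% beside 38.1% of all genes.

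Atp2a3, an ER calcium pump of blood and epithelial cells, was at 0.110, 0.0381 and 0.184 CPM in the untreated libraries and 2.65, 2.86 and 2.67 CPM after shCon EVs, at most 5 counts in an untreated library and up to 86 in a treated one. It differed by 4.56 ± 0.26 (adjusted p = 5e-08), a fit that rests on few untreated counts, and was at 27.2, 27.5 and 28.5 CPM with CrOE EVs. Lars2, the mitochondrial leucyl-tRNA synthetase, was at 199, 244 and 2481 CPM in the untreated libraries and 294, 308 and 300.4 CPM after shCon EVs and was not called (adjusted p = 0.0852); untreated replicate 3 held the high value, and the CrOE libraries were at 2067, 1511 and 1333 CPM.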
